A study of Mus musculus with 24 samples.

Results

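The constitutive proteasome subunits are the genes that encode the standing parts of the cell's main protein-degrading machine. They were taken as all gene names on the array made of Psma, Psmb, Psmc, Psmd or Psme and a number, without Psmb8, Psmb9 and Psmb10, the immunoproteasome subunits that can replace the standing catalytic ones. The rule found 39 genes among the 29742 gene names on the array. Of these, 16 belong to the core (Psma and Psmb) and 23 to the regulators (Psmc, Psmd and Psme). The rule reads gene names and no measured value.

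The proteasome is a barrel of stacked rings that cuts proteins into peptides. Its outer rings are built of Psma (alpha) subunits and its inner rings of Psmb (beta) subunits, of which Psmb5, Psmb6 and Psmb7 carry the cutting sites. A regulatory particle caps the barrel. Its base holds the Psmc ATPases, which unfold the substrate, and Psmd4, a ubiquitin receptor. Its lid holds most Psmd subunits, among them Psmd14, which cuts off ubiquitin tags. The Psme genes encode other caps, which open the barrel without ubiquitin. Blood cells use the proteasome to clear damaged proteins, to destroy short-lived regulators and to make peptides for MHC class I.

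Blood of 24 male C57BL/6J mice was measured, 1 mouse per array, in 4 groups of 6 mice: young (2 months) unirradiated, young irradiated, old (21 months) unirradiated and old irradiated. Irradiated mice received a single total-body x-ray dose of 4 Gy, and blood was drawn by cardiac puncture after 24 h, so the RNA comes from a mixture of all blood cells in which fewer cells of a type and less RNA per cell cannot be told apart. No gene was altered in any group. The series asks how age changes the blood response to radiation, and the comparisons below ask it of the proteasome subunits.

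Values are log2 signals minus the median of the same array, called levels here, and a difference between groups is a log2 difference (1 is a doubling). A gene was called higher or lower where limma's moderated test gave p below 0.005 and an adjusted p below 0.05 over all genes tested. Of the 39 subunits, 37 were above background on all 24 arrays. The other two were Psma8, a testis form of an alpha subunit, well above background on 0 arrays, and Psmb11, a thymus form of a beta subunit, well above background on 1 array. A second filter, which keeps genes that vary by 1.5-fold in at least 20% of the arrays, left 27 subunits among 17464 genes. It removed Psma2, Psma5, Psmb4, Psmb7, Psmc3, Psmd2, Psmd12, Psmd13, Psme1 and Psme4, so counts are given for the 27 and for the 37, the latter among 18729 genes.

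Some arrays stood apart before any subunit was considered. Marker values are means over the measured genes of a list, each relative to its median in young unirradiated mice. On the arrays of old irradiated mice 4 and 6, the value of 7 red cell markers was 1.85 and 1.90, against -3.24 to -2.08 in the other 4 mice of that group. Their monocyte marker values were -1.42 and -1.44 on the same scale, against 0.70 to 1.29 in the others. Their profiles resembled each other closely (r = 0.994 over 13555 probes), as did those of young irradiated mice 2 and 5 (r = 0.994) and of old unirradiated mice 1 and 6 (r = 0.998). In each of these pairs the SD between the arrays was 1.59 to 1.76 times that between repeat spots of a probe. Repeat spots lie on 1 array, so this ratio cannot tell separate mice from 1 RNA measured on 2 arrays. The arrays were kept as separate mice, as labelled, and results that change when each pair is averaged are given both ways. Young irradiated mice 1 and 6 had a ratio in the same range (1.72, r = 0.991) and were not averaged. The markers of B cells (7 of 7 measured) stood at -2.76 in young irradiated and at -3.54 in old irradiated mice, as group medians on that scale. Hepatocyte markers, of which 4 of 7 were measurable, were at 6.92 to 8.02 in young irradiated mice 2, 4 and 5 and at 6.55 to 7.10 in old irradiated mice 2, 3 and 5, while Alb and Apoa1 were not well above background in any old unirradiated mouse. The arrays lay on 6 slides, each with mice of 1 age. In each age 1 slide held 2 mice of each radiation group, and every other slide held a single radiation group. Slide and radiation can thus be told apart only in part. All arrays of an age were scanned on 1 day, so that age and scanning day cannot be told apart.

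Psme3 and Psmd11 were the only subunits called in young mice after irradiation. Psmb5 is a catalytic subunit. On the array median scale its level in irradiated mice lay above the unirradiated mean in all young and below it in all old mice. Psmd6 is a lid subunit called lower in old mice. The promoters of these 4 subunits are shown because the results below turn on them. They are the 250 bases before the RefSeq gene start (build GRCm38.p6), at chr11:101315963-101316212 (plus strand), chr11:80428365-80428614 (plus strand), chr14:54617996-54618245 (minus strand) and chr14:14120946-14121195 (minus strand). Each is written 5′ to 3′ along its gene, with matches to the motifs named next in capitals.
Psme3: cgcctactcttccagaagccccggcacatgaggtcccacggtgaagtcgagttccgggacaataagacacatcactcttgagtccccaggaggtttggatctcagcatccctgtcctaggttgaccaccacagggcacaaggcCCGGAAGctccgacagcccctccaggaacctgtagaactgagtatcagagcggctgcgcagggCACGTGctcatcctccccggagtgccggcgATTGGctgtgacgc
Psmd11: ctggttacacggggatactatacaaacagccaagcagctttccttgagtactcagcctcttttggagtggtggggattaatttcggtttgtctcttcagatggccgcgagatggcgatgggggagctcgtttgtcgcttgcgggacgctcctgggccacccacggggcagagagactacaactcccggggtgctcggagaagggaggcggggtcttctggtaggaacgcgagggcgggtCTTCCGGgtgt
Psmb5: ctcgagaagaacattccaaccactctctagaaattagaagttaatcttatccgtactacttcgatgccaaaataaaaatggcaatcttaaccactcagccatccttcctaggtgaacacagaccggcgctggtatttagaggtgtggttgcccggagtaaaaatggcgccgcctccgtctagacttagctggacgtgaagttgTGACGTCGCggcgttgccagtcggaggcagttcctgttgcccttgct
Psmd6: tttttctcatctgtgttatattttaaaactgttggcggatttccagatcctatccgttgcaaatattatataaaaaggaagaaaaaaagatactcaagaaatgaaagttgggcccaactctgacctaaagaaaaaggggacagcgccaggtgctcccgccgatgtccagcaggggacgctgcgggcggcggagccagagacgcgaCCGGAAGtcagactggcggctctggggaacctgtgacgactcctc

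Searched on both strands, in windows that run to 50 bases after the start, were TGACNNNGC, the core of the antioxidant response element that the proteasome regulator Nfe2l1 binds, CCAAT, the box bound by NF-Y, CCGGAAG, an ETS factor motif, and CACGTG, an E-box. The table of promoters held 32 of the 39 subunits among 27025 genes. The ETS motif stood in 12 of the 32 subunit promoters (37.5%), against 9.93% of all genes. It was in 11 of 20 regulator promoters and in 1 of 12 core promoters. The antioxidant core was in 6 of 32 (18.8%, against 14% of all genes), the CCAAT box in 13 of 32 (40.6%, against 41.1%) and the E-box in 3 of 32 (9.38%, against 8.09%). Psme3 had an ETS match 107 bases before its start, another beginning 3 bases into the gene, an E-box 44 bases before the start and a CCAAT box 14 bases before it. Psmd11 and Psmd6 each had only an ETS match, at 11 and 45 bases before the start. Psmb5 had only an antioxidant core match, at 47 bases before the start. These are matches of letters and were not tested as binding sites.

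**Figure D1:**
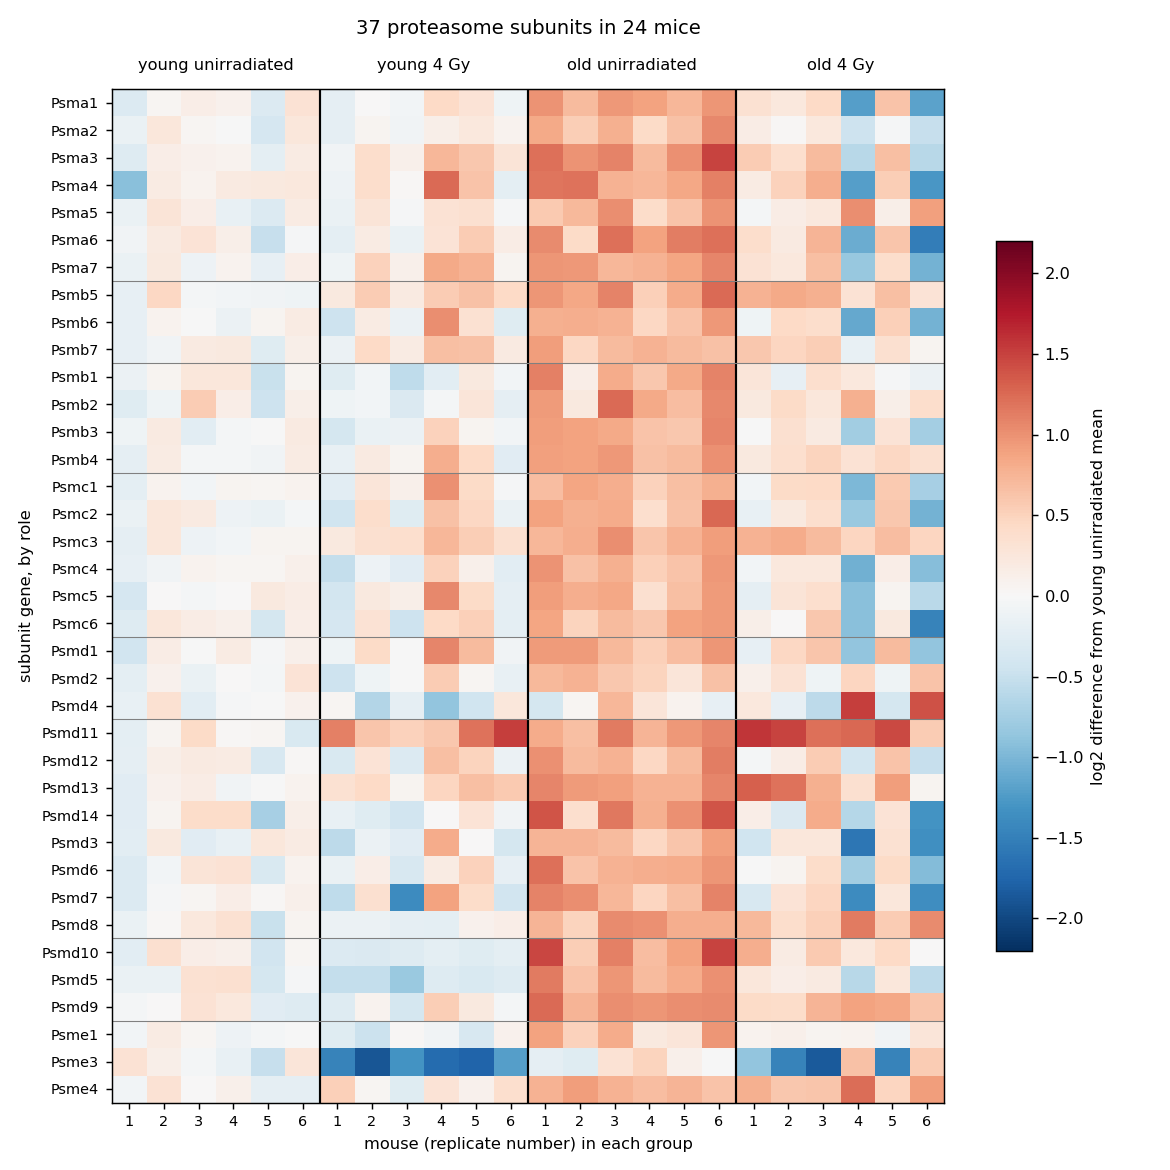
Each row is 1 of the 37 subunits above background, ordered by role, and each column 1 of 24 mice; colour is the log2 difference from the mean of the 6 young unirradiated mice, from blue (lower) to red (higher). Old unirradiated mice are red in nearly all rows, the Psme3 row is blue in all 6 young irradiated mice, and old irradiated mice 4 and 6 are blue in many rows.

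Irradiation of young mice left most subunits at the unirradiated level. The median difference was 0.07 over the 37 subunits and -0.18 over all genes, and 33 of the 37 lay above that median. Among the regulators Psmd11 rose and Psme3 fell. These were 1 of 27 called higher, against 14.4% of all genes, and 1 of 27 called lower, against 21.4%; over the 37 the counts were also 1 and 1, against 13.8% and 20.4%. Both shares of the subunits were under those of all genes, and that gap was not tested.

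Psme3 encodes the nuclear activator REG-gamma, which opens the core for ubiquitin-independent degradation. Its level in the 6 young unirradiated mice ran from 5.67 through a median of 6.23 to 6.49. In the 6 young irradiated mice it ran from 4.29 through 4.60 to 4.98. The highest irradiated mouse was thus below the lowest unirradiated mouse. The difference was -1.55 ± 0.18 (SE, 6 mice per group), 0.340 times the unirradiated level, with an adjusted p of 3.1e-05 by limma. Within the slide that held 2 mice of each group it was -1.56. The array carried 1 probe for it, at chr11:101184289-101184348 (mm9).

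Psmd11, a scaffold subunit of the lid, went the other way. It ran from 3.50 through 3.88 to 4.27 in young unirradiated mice and from 4.36 through 4.70 to 5.37 in young irradiated mice. These groups did not overlap either. The rise was 0.92 ± 0.20 (SE), 1.89-fold, with an adjusted p of 0.00247 by limma, and 0.999 within the shared slide. With slide as a fixed term the call was lost (adjusted p = 0.104 by limma), while that of Psme3 was kept (adjusted p = 0.0201). With normexp background correction the call of Psme3 was lost too, at -0.92 (adjusted p = 0.419 by limma). Non-overlapping groups were seen for 9.15% of all genes upwards and 14.6% downwards, and among the 37 subunits for Psmd11 and Psme3 alone.

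The core moved little. The 7 alpha ring subunits were between 0.04 and 0.36 higher, with a median of 0.14, and none was called. Of the catalytic beta subunits, Psmb5, with the chymotrypsin-like site, ran from 7.76 through 7.88 to 8.40 unirradiated and from 8.15 through 8.44 to 8.599 irradiated. Psmb6, with the caspase-like site, ran from 7.01 through 7.21 to 7.37 and from 6.73 through 7.21 to 8.20. Only unirradiated mouse 2 kept the Psmb5 groups from separating, while the irradiated Psmb6 values spread to both sides of the unirradiated ones. Psmb5 was 0.43 ± 0.15 higher (adjusted p = 0.0272 by limma), which missed the stricter unadjusted threshold, and Psmb6 was 0.11 higher. Psmb7, with the trypsin-like site, ran from 4.15 through 4.44 to 4.63 and from 4.28 through 4.73 to 5.08, a difference of 0.33. With each array scaled to its 75th percentile or to probes above background on all arrays, 4 of 37 subunits were called higher in place of 1 (against 14.1% and 14.8% of all genes): Psmd11, Psmb5, the base ATPase Psmc3 (0.42 at the array median scale) and the lid subunit Psmd13 (0.42). Psme3 alone was called lower, against 21% and 20.8%. Quantile normalization gave 1 higher, against 13.1%, and 2 lower, against 23.3%.

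Other regulators stayed close to their unirradiated levels. The 6 base ATPases ranged from -0.08 to 0.42 with no call, and the 3 assembly chaperones of the base, Psmd5, Psmd9 and Psmd10, from -0.46 to 0.02. Psmd5 ran from 2.58 through 2.88 to 3.32 unirradiated and from 2.14 through 2.53 to 2.68 irradiated, a difference of -0.46 ± 0.16 (adjusted p = 0.0348 by limma) that also missed the unadjusted threshold. Psmd4, the ubiquitin receptor of the base, ran from 9.13 through 9.34 to 9.69 and from 8.49 through 9.04 to 9.61. Both groups of Psmd5 and both of Psmd4 overlapped. Psma7, an alpha subunit, ran from 6.63 through 6.79 to 7.01 and from 6.71 through 7.12 to 7.64, with mouse 4 highest.

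**Figure D2:**
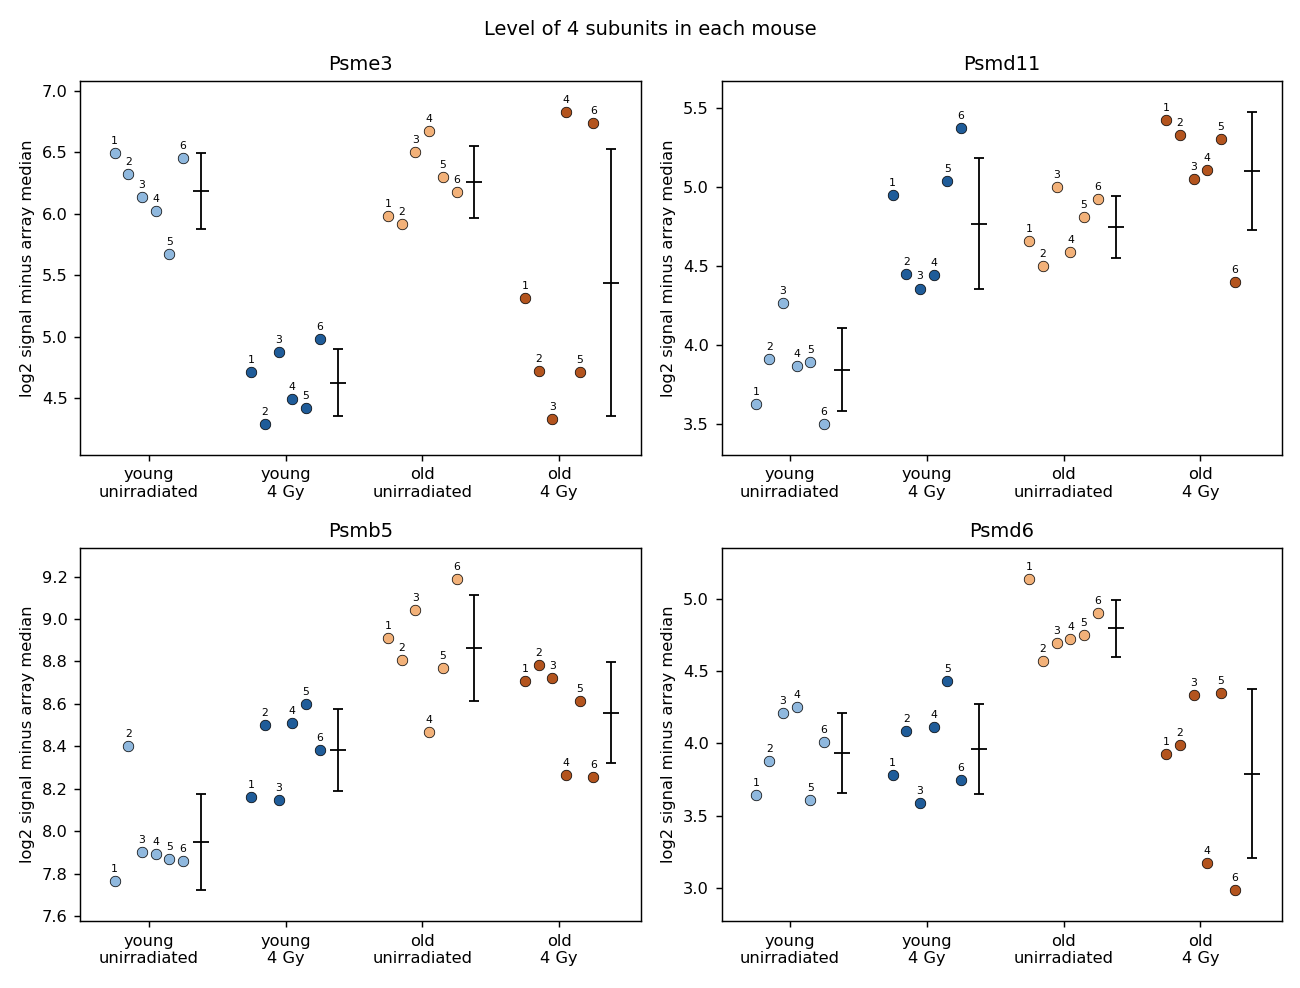
Level (log2 signal minus array median) of Psme3, Psmd11, Psmb5 and Psmd6 in each of 24 mice, numbered by replicate; the bar beside each group is the mean ± SD of 6 mice. Young irradiated Psme3 lies between 4.29 and 4.98, below all unirradiated mice, whereas old irradiated mice 4 and 6 lie above all old unirradiated mice.

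In old mice most subunits were lower after irradiation. The median difference was -0.80 over the 37 subunits and -0.24 over all genes, and 31 of the 37 lay below that median, including all 14 core subunits. Called lower were 6 of 27, against 17.4% of all genes, and called higher were 0 of 27, against 7.6%, and 20 of the 27 reached an unadjusted p below 0.05, against 44.9% of all genes. Over the 37 the count was 7 lower, against 17.1%, and 0 higher, against 7.32%. The called share was thus close to the background although the median shift was larger. That larger shift was not seen in every mouse, as given below.

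The called members came from most parts of the complex. Psmd6, a lid subunit, ran from 4.57 through 4.74 to 5.14 in old unirradiated mice and from 2.98 through 3.96 to 4.35 in old irradiated mice. Psmc4, a base ATPase, ran from 5.67 through 5.86 to 6.12 and from 4.09 through 5.19 to 5.38. For both genes every irradiated mouse was below every unirradiated mouse. Psmd6 fell by 1.01 ± 0.28 and Psmc4 by 0.99 ± 0.29 (adjusted p = 0.0156 and 0.0172 by limma). Psmd14, the lid enzyme that cuts off ubiquitin, ran from 3.32 through 4.04 to 4.34 and from 1.65 through 2.87 to 3.78, and fell by 1.18 ± 0.35 (adjusted p = 0.0197 by limma). Its groups overlapped, through irradiated mouse 3. The other called genes were the structural beta subunit Psmb3 (-0.94), the ATPase Psmc5 (-0.92), the chaperone Psmd5 (-0.93) and, outside the 27, the alpha subunit Psma2 (-0.80). Groups did not overlap for 10 of the 37 subunits, all lower, against 16.3% of all genes lower and 5.56% higher.

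The size of the fall rested in part on old irradiated mice 4 and 6. In these mice 20 and 21 of the 37 subunits were lower than the old unirradiated mean by more than 1, against 1 or 2 in each of the other 4 mice of the group. Psma6, an alpha subunit, ran from 5.20 through 5.86 to 5.99 unirradiated and from 3.25 through 5.07 to 5.51 irradiated, with mouse 6 lowest. Psmb6 ran from 7.65 through 7.96 to 8.14 and from 6.07 through 7.33 to 7.72, with mouse 4 lowest. The spread of Psma6 among irradiated mice (SD 0.95) was about as large as its difference of -1.099, which was not called. Psmd3, a lid subunit with a difference of -1.12 that was not called, ran from 7.24 through 7.50 to 7.69 and from 5.19 through 6.69 to 7.13. All 6 of its irradiated mice were below all unirradiated mice.

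Not all subunits were lower in mice 4 and 6. Psmd4 ran from 8.97 through 9.41 to 10.09 in old unirradiated mice and from 8.78 through 9.38 to 10.88 in old irradiated mice, Psmd8, a lid subunit, from 5.80 through 6.10 to 6.35 and from 5.70 through 5.95 to 6.45, and Psme3 from 5.92 through 6.24 to 6.67 and from 4.33 through 5.01 to 6.82. All 3 genes had overlapping groups, with mice 4 and 6 at the top. Relative to the old unirradiated mean, Psmd4 was at 1.44 and 1.31 in these 2 mice and between -0.67 and 0.15 in the other 4. Psmd8 was at 0.33 and 0.23 in mice 4 and 6 and below 0 in the others. Psme3 was at 0.57 and 0.48 in mice 4 and 6, against -1.93 to -0.94 in mice 1, 2, 3 and 5. The interquartile range of the subunits' deviations was 1.42 and 1.38 in mice 4 and 6, against 0.26 to 0.52 in the other 4. The red cell markers were high on the same arrays, as given above. These arrays were also the dimmest, with a median signal of 8.66 and 8.84, against 14.4 to 44.8 on all others. The part of the markers and of the low signal in these values was not tested.

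With mice 4 and 6 left out, an alternative chosen after the data were seen, 5 of 27 subunits were called lower, against 22.8% of all genes, and the shift of the median subunit against the median of all genes went from -0.67 to -0.21. Psme3 was then called lower (-1.49, adjusted p = 0.000603 by limma), whereas over all 6 mice it was at -0.82 (adjusted p = 0.163). With the 3 old irradiated mice with high hepatocyte markers left out instead, the shift was -1.13 and 18 of 27 were called lower, against 24.5% of all genes, while Psme3 stood at 0.03. With each pair of very similar arrays averaged, limma called 0 of 27 subunits, against 9.93% of all genes lower. Of the 27, 15 had an unadjusted p below 0.05, a count whose share of all genes is not given here. In the fit without averaging it was 20 of 27, against 44.9% of all genes. With slide as a fixed term limma called 0, against 0.83% lower, with 0 at an unadjusted p below 0.05. That fit rests on the slide that held 2 mice of each group. Leaving out 1 mouse gave 0 calls without old unirradiated mouse 1, 3 or 6, 1 without old unirradiated mouse 5 or old irradiated mouse 1, 4 or 6, 2 without old unirradiated mouse 2 or 4, and 5, 8 and 9 without old irradiated mouse 2, 5 and 3, while 12% to 18.3% of all genes were called lower. Within the slide that held 2 mice of each group, neither of them mouse 4 or 6, 34 of 37 subunits were lower, with a median of -0.69 against -0.58 for all genes.

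Psmd11 was again among the few subunits that were not lower. It ran from 4.501 through 4.73 to 4.996 in old unirradiated mice and from 4.398 through 5.20 to 5.42 in old irradiated mice, with mouse 6 lowest. Of the 6 irradiated mice, 5 were above every unirradiated mouse. The difference was 0.35 ± 0.24 (adjusted p = 0.258 by limma). With the 75th percentile or common probe scale it alone was called higher, against 10.4% and 11.3% of all genes, and 4 and 1 subunits were called lower in place of 7 over the 37, against 13.6% and 11.8%. Quantile normalization gave 13 lower, against 16.9%, and 0 higher, against 8.15%. On these scales the median of all genes was 0.06, 0.11 and -0.17 in place of -0.24. The shift of the median subunit against all genes, which the first 2 of these scales cannot change, was -0.56 over the 37, -0.53 with quantile normalization and -0.21 with normexp background correction.

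**Figure D3:**
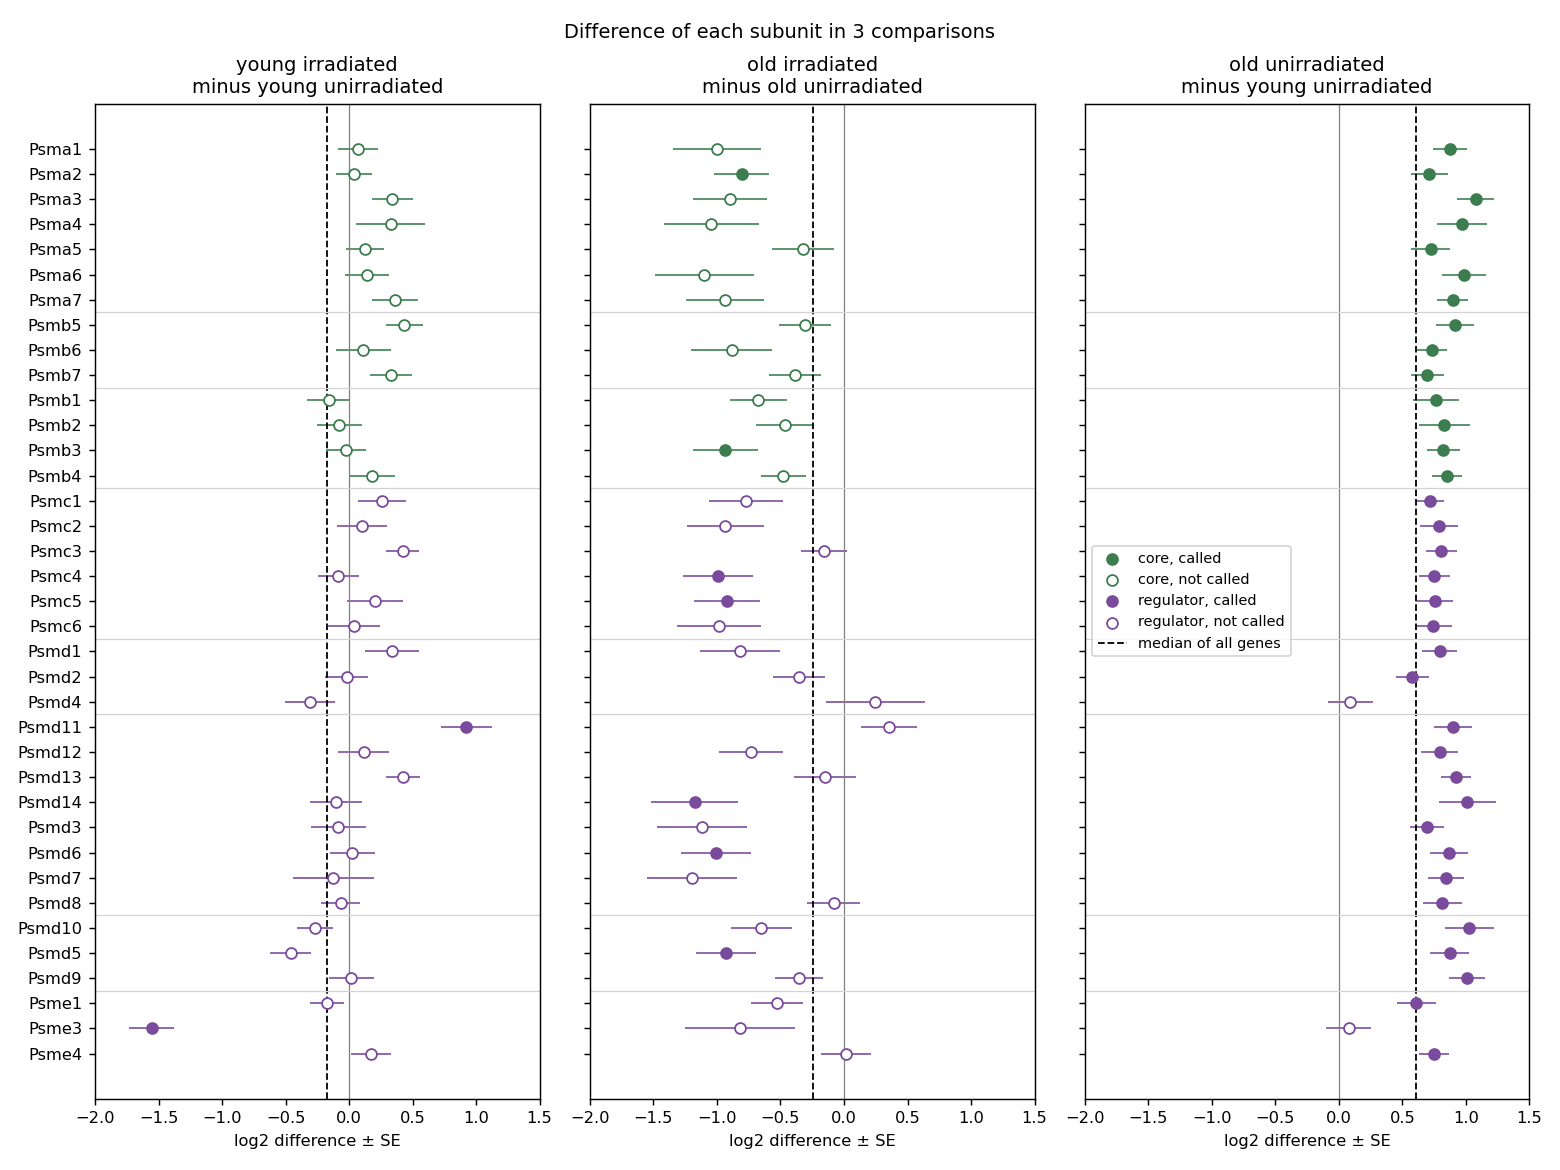
Log2 difference ± SE of the 37 subunits, by role, after irradiation in young mice (left), after irradiation in old mice (centre) and with age in unirradiated mice (right), 6 mice per group; filled points were called over 18729 genes and the dashed line is the median of all genes. Core subunits lie right of the dashed line in young irradiated mice and left of it in old irradiated mice, and 35 of 37 points are filled in the age comparison.

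On the array median scale the catalytic subunits lay below their unirradiated means in old mice, as did the rest of the core. Psmb5 ran from 8.47 through 8.86 to 9.19 unirradiated and from 8.26 through 8.66 to 8.78 irradiated, a difference of -0.31. Psmb7 ran from 4.87 through 5.11 to 5.33 and from 4.25 through 4.83 to 5.001, a difference of -0.39, and that of Psmb6 was -0.88. None of the 3 was called, and only irradiated mice 4 and 6 lay clearly under the unirradiated range of Psmb5. By role, the median differences were -0.94 for the alpha ring (7 genes), -0.58 for the structural beta subunits (4), -0.39 for the catalytic ones (3), -0.93 for the base ATPases (6), -0.87 for the lid (8), -0.65 for the assembly chaperones (3) and -0.53 for the alternative activators (3).

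Whether old and young mice responded differently was tested as an interaction over all 24 arrays. It called 0 of 27 subunits and 0% of all genes by limma, with a lowest adjusted p among subunits of 0.11, while 18 subunits had an unadjusted p below 0.05, against 23.6% of all genes. The interaction estimate was negative for 25 of 27 subunits, that is, the difference after irradiation was lower in old mice. The alpha subunits Psma4 (-1.37), Psma7 (-1.30) and Psma6 (-1.24) were furthest from 0. Psma4 ran from 3.93 through 5.03 to 5.07 in young unirradiated, from 4.63 through 5.05 to 6.10 in young irradiated, from 5.57 through 5.82 to 6.04 in old unirradiated and from 3.57 through 5.19 to 5.65 in old irradiated mice. The young groups overlapped, while in old mice only irradiated mouse 3 reached into the unirradiated range. Psma7 ran from 7.54 through 7.72 to 7.88 in old unirradiated and from 5.77 through 7.08 to 7.47 in old irradiated mice, without overlap. Psma6 ran from 4.27 through 4.82 to 5.07 in young unirradiated and from 4.57 through 4.94 to 5.33 in young irradiated mice, with overlap. Psmd8 ran from 4.81 through 5.35 to 5.64 and from 5.10 through 5.18 to 5.46 in these groups, also with overlap. Leaving out 1 mouse changed the count of 0 only for old irradiated mouse 3, without which 6 were called lower, against 4.5% of all genes.

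Between unirradiated mice, all 37 subunits were higher in old than in young blood on the array median scale. Called higher were 25 of 27, against 48.3% of all genes, and none was lower, against 15.5%; over the 37 the count was 35, against 48.5%. The exceptions were Psmd4 (0.09) and Psme3 (0.08), whose ranges overlapped. Psmd3, with the next smallest difference among the 27 (0.69), ran from 6.54 through 6.79 to 7.03 in young mice, below its range in old mice of 7.24 to 7.69. The median of all genes was itself 0.61 higher in old mice, so the median subunit, at 0.81, stood 0.20 above it.

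Psma3, an alpha subunit, had the largest rise, from 6.23 through 6.58 to 6.68 in young mice to 7.20 through 7.55 to 7.98 in old mice. Psmd10, the chaperone also named gankyrin, ran from 2.66 through 3.16 to 3.43 in young and from 3.62 through 4.07 to 4.57 in old mice. Neither gene's groups overlapped. Psma3 rose by 1.08 ± 0.15 and Psmd10 by 1.03 ± 0.20 (adjusted p = 4.63e-05 and 0.000401 by limma). Psmd10's second probe gave 0.74, and that of Psmd9 0.58 in place of 1.01. Psmd14 ran from 2.22 through 3.04 to 3.36 in young mice, against 3.32 to 4.34 in old mice as above, and rose by 1.01 ± 0.23. Groups did not overlap, all with old mice higher, for 31 of the 37 subunits, against 37.6% of all genes.

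Most of these calls depended on the scale of the arrays. With the 75th percentile in place of the median, 5 of 37 were called higher, against 12.7% of all genes: Psma3, Psma7, Psmb4, Psmd9 and Psmd13. With common probes 3 were called (Psma3, Psma7 and Psmd13), against 8.84%, and with quantile normalization 2 were higher (Psmd9 and Psme4), against 16.2%, and Psme3 lower. On these scales the median of all genes was 0.09, 0.02 and 0.14 higher in old mice, and the genes called lower made up 21.9%, 23.2% and 17.9% of all genes in place of 14.7%. Old mice were higher for 35, 34 and 33 of the 37 subunits respectively. The median subunit stood 0.20, 0.20 and 0.07 above the median of all genes. Neutrophil and monocyte markers were higher in old unirradiated mice (group medians 1.60 and 1.27, over 7 genes each) and their part in these values was not tested.

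**Figure D4:**
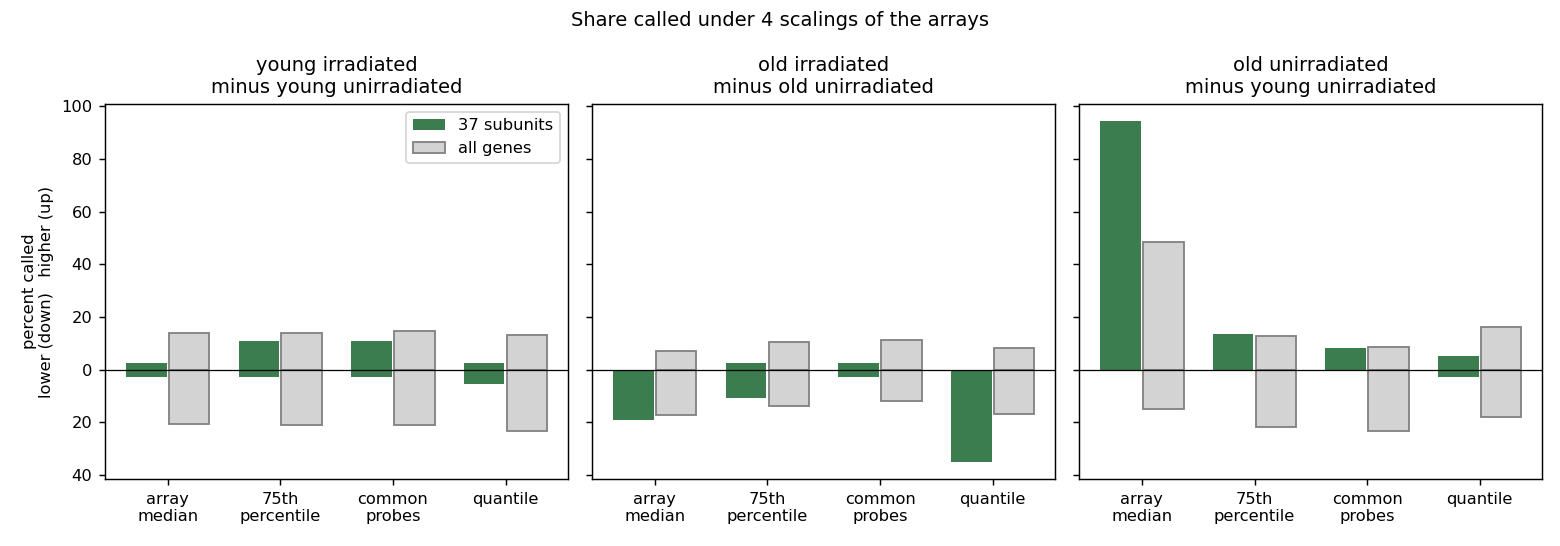
Percent of the 37 subunits (green) and of all 18729 genes (grey) called higher (above 0) or lower (below 0) under 4 ways of scaling the arrays, in 3 comparisons. The share of subunits called higher with age drops from 35 of 37 genes under the array median to 5 or fewer under the other three scales, and the count called lower after irradiation of old mice ranges from 1 to 13.

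Between irradiated mice, 0 of 27 subunits were called in either direction by limma, against 1.4% of all genes higher and 0.601% lower in old mice, and 3 had an unadjusted p below 0.05, against 21.4% of all genes. The median difference, old minus young, was -0.16 over the 27 subunits and 0.20 over all genes. Psme3 ran from 4.29 to 4.98 in young irradiated mice and from 4.33 to 6.82 in old ones, as above, a difference of 0.81 that was not called. Psmd8 ran from 5.10 to 5.46 in young and from 5.70 through 5.95 to 6.45 in old irradiated mice, and Psmd10 from 2.76 through 2.80 to 2.86 and from 3.09 through 3.41 to 3.88. For both genes, and for no other of the 37 (2 against 4.64% of all genes), the old mice lay above all young mice, yet neither passed the test (0.80, adjusted p = 0.0812, and 0.64, adjusted p = 0.12 by limma). The second probe of Psmd10 gave a smaller difference of 0.25. Psmc5 ran from 4.404 through 4.98 to 5.87 and from 3.89 through 4.74 to 5.18, a difference of -0.37, and Psma7 and Psma4, whose ranges are given above, were at -0.41 and -0.40. Without old irradiated mice 4 and 6, 3 subunits were called higher, against 20.3% of all genes.

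Core and regulator moved together on most arrays. The core value is the mean over 14 core subunits, each relative to its median in young unirradiated mice. It stood between -0.26 and 0.12 in young unirradiated, -0.19 and 0.49 in young irradiated, 0.63 and 1.04 in old unirradiated and -0.46 and 0.46 in old irradiated mice. The same measure over 23 regulators ran from -0.21 to 0.09, -0.28 to 0.29, 0.56 to 0.88 and -0.25 to 0.33. Core minus regulator was -0.06 to 0.09 in young unirradiated mice and 0.03 to 0.25 in young irradiated mice. It was 0.05 to 0.16 in old unirradiated mice and -0.23 to 0.13 in old irradiated mice, with mouse 4 lowest. The core thus gained slightly on the regulators in young irradiated mice, where the medians of their differences were 0.13 and -0.07 over the 27 genes and 0.13 and 0.02 over the 37. In old mice after irradiation the medians over the 27 were -0.92 for both, and over the 37 they were -0.84 for the core and -0.77 for the regulators.

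Markers of several cell types moved with the core among young irradiated mice. Mice 2, 4 and 5, with hepatocyte markers at 6.92 to 8.02, had core means of 0.18 to 0.49. Mice 1, 3 and 6, with hepatocyte markers at -1.54 to -0.78, had core means of -0.19 to -0.02. The same mice 2, 4 and 5 had lower red cell markers (-3.02 to -2.08, against -1.23 to -0.78 in mice 1, 3 and 6), lower neutrophil markers (0.56 to 0.60, against 1.34 to 1.60) and higher tissue macrophage markers (5.36 to 5.63, against 3.72 to 4.62). Their T cell markers were also lower (-2.26 to -1.59, against -1.43 to -0.62), as were their platelet markers (0.50 to 1.77, against 1.85 to 2.52). B cell and monocyte markers overlapped with those of mice 1, 3 and 6. The part of any of these markers in the subunit values was not tested. With mice 2, 4 and 5 and the corresponding old mice left out, the shift of the subunits against all genes in young mice went from 0.22 to -0.11, and the interaction called 14 subunits lower and 1 higher in place of 0, against 12% and 8.66% of all genes.

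Of 27 partner genes of the proteasome, 26 were measured and 23 passed both filters. In young mice 3 of 23 rose after irradiation and 3 fell, against 14.4% and 21.4% of all genes. Among those that fell were Psmg4, a chaperone of core assembly, by 0.58, and Usp14, a deubiquitinase of the base, by 0.55. Risers were Ubqln2, a shuttle of ubiquitinated proteins (0.87), the small lid subunit Sem1 (0.70) and Uba1, the main ubiquitin-activating enzyme (0.52). In old mice 0 rose and 5 fell, against 7.6% and 17.4% of all genes, and 8 of the 23 partners had an unadjusted p below 0.05, against 44.9% of all genes. Those that fell were the core assembly chaperones Psmg1 (-1.36), Psmg2 (-1.28) and Psmg4 (-1.56), the proteasome-associated ligase Ube3c (-1.27) and the shuttle Ubqln4 (-1.25). The median difference of the partners in old mice was -0.49, against -0.92 for the 27 subunits and -0.25 for all genes. With age 17 of 23 partners were called higher and 1, the protease Ddi2 that activates Nfe2l1, lower (-0.81), against 48.3% and 15.5% of all genes. Most of these calls depended on the scale too. Over the 26 partners 20 were called higher, against 48.5% of all genes. On the 75th percentile, common probe and quantile scales it was 4, 0 and 6, against 12.7%, 8.84% and 16.2%. On each of these scales 1 partner was called lower, against 21.9%, 23.2% and 17.9%.

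The immunoproteasome subunits are known to replace the catalytic ones in immune cells. In young mice none was called after irradiation (Psmb8 -0.35, Psmb9 -0.30, Psmb10 0.19). In old mice Psmb8 fell by 1.25 and Psmb10 by 1.49 (adjusted p = 0.00714 and 0.00927 by limma), and Psmb9 was at -0.97 and missed the unadjusted threshold. Their mean level, each gene relative to its young unirradiated median, was lowest in old irradiated mice 4 and 6. It was at -0.98 and -0.99 there, against 0.19 to 0.26 in the other 4 mice.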

How the data were processed

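Whole blood RNA of 24 mice was hybridized to 1-colour Agilent mouse arrays after globin RNA was reduced. The deposited scanner files hold intensity values, which the authors obtained with Feature Extraction 12.0.2 as a background-subtracted signal for each spot. The deposited table of log2 values, which the authors filtered and median normalized, was used only as an alternative.

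Control spots and spots with outlier marks were left out, repeat spots of 39429 probes were averaged, and the log2 signal minus the array median was used. A probe was dropped where it was dim or uneven on 25% or more of the arrays (24121 kept). Each gene was given its brightest probe (18729 genes), and genes had to differ by 1.5-fold from their median on at least 20% of the arrays (17464 genes), after the study's methods. Groups were taken from the labels and compared with limma 3.58.1 (two-sided moderated test, R 4.3.3, Benjamini-Hochberg adjustment), which stands for the random variance test of the study. The interaction was fitted over all 24 arrays. The fit was tested on simulated data. Standard errors come from limma with both filters, and p-values set each difference against the spread between mice of a group. The differences can also hold effects of slide and, between ages, of scanning day, which these p-values do not separate. The number of arrays limits the precision.

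Members and gene lists were chosen with earlier results of these data known. Lowest, median and highest values are given for the catalytic subunits and, in each comparison, for the 3 members with the largest rises and falls relative to all genes; promoters and further members were chosen after their values were seen. Coordinates of probes are those of the array design (mm9), and promoters come from RefSeq (GRCm38.p6). Alternatives were other scales (75th percentile, quantile, common probes), normexp background correction, the authors' values, no filters, the mean of all probes, slide or replicate blocks, one fit of all arrays and leaving out each mouse. The values of 1 partner gene are not reported here.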

Additional observations from a re-analysis of the deposited data

Results flagged for a closer look

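For the 18 named subunits and the core and regulator means, 80 groups of 6 mice were searched for a mouse far from the others, by the gap to its nearest neighbour as a share of the group's range, and 3 were found; chance gives about 1 in 20 groups. The level of Psma4, an alpha ring subunit, in young unirradiated mouse 1 (3.93) was low, with a gap of 0.871 of the range. Psmb5, the chymotrypsin-like catalytic subunit, was high in young unirradiated mouse 2 (8.40), with a gap of 0.783. Psmd11, a lid scaffold subunit, was low in old irradiated mouse 6 (4.398), with a gap of 0.637.

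For Psmb5 the irradiated mice lay on opposite sides of the unirradiated mean in young and old mice, on the array median scale. Relative to the mean of the unirradiated mice of the same age, it was 0.20 to 0.65 higher in 6 of 6 young irradiated mice and between -0.61 and -0.08 in 6 of 6 old irradiated mice. The difference between the ages was -0.74 ± 0.24 (SE) and did not pass the interaction test (adjusted p = 0.128 by limma). In old mice Psmb5 differed by -0.31, against -0.24 for the median of all genes. On the 75th percentile and common probe scales its difference was -0.006 and 0.04 in old mice. In young mice it was 0.44 and 0.46 on these scales.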

How the results depend on the processing

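The number of subunits called was set largely by the scale, the filters and single mice. Counts without a share of all genes beside them show only how a setting changed the count. They do not set the subunits against other genes. With both filters kept, the 75th percentile, common probe and quantile scales left few subunits to test, so that core could not be compared with regulator there. Normexp added an offset of 50 to arrays whose median signal was 8.66 to 44.8. Well above background were 43.9% to 64.4% of spots per array, which limits the dim subunits. Of the differences of single subunits, 3704 kept their direction and their side of the threshold, 252 lost the call, 75 gained it and 4 reversed. Causes were not tested.

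In young mice 2 subunits were called after irradiation. The count was 1 with quantile normalization, with the authors' values and with slide as a fixed term, 0 with normexp and 4 with slide as a random block. The shift against all genes (0.22) was -0.018 without the filter on dim probes and -0.11 without the arrays with high hepatocyte markers. Core minus regulator (0.19) was 0.054 with the authors' values and 0.087 with the mean of all probes. Without 1 mouse the count was 2 to 3 (3 without young unirradiated mouse 2), the shift 0.13 to 0.33 and core minus regulator 0.080 to 0.21.

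In old mice 6 were called. The count was 0 with the 75th percentile, quantile, common probe and normexp settings, with the authors' values, with slide as a fixed term and with similar arrays averaged. It was 2 without the filter on dim probes, both lower, against 10.2% of all genes. It was 18 in one fit of all arrays. Without the arrays with high hepatocyte markers it was also 18, all lower, against 24.5% of all genes. The shift (-0.67) was -0.39 with normexp, -0.21 without old irradiated mice 4 and 6 and -1.13 without the arrays with high hepatocyte markers. Core minus regulator (0.00) was -0.21 with the authors' values. Without 1 mouse the count was 0 to 9, the shift -0.78 to -0.48 and core minus regulator -0.05 to 0.04.

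With age 25 were called in unirradiated mice. The count was 0 with the 75th percentile, common probe and normexp settings and 1 with quantile normalization or the authors' values. The shift (0.20) was 0.35, 0.34 and 0.10 with the 75th percentile, common probes and normexp, and 0.53 without the filter on dim probes. Core minus regulator (0.09) was 0.0029 with the authors' values. Psme3 reversed to -0.65 with quantile normalization, with or without the variation filter, and to -0.72 with the authors' values, and Psmc1 to -0.051 with the authors' values. Without 1 mouse the count stayed at 25, the shift was 0.19 to 0.25 and core minus regulator 0.05 to 0.12.

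Between irradiated mice 0 were called, 3 in one fit of all arrays, 1 with slide as a random block and 3 without old irradiated mice 4 and 6. The shift (-0.36) was 0.14 with the 75th percentile and -0.0462 with common probes. Core minus regulator (-0.02) was -0.33 with normexp, -0.31 with the authors' values and -0.33 without the variation filter. Without 1 mouse the count stayed at 0, the shift was -0.47 to -0.23 and core minus regulator -0.07 to 0.03. For the interaction the count was 0 to 6 without 1 mouse (6 without old irradiated mouse 3, against 4.5% of all genes lower). It was 15 without the arrays with high hepatocyte markers, against 12% of all genes lower and 8.66% higher.

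Settings without the variation filter on other scales were chosen after seeing the data, as were those on similar arrays, old irradiated mice 4 and 6 and hepatocyte markers. On the 75th percentile scale 5 were called in young mice and 5 with age. On the common probe scale 5 were called in young mice, 2 in old mice and 3 with age. With quantile normalization 13 were called in old mice and 3 with age, the age shift was 0.074, and core minus regulator was 0.035 in young, -0.23 in old and -0.20 between irradiated mice. With normexp 0 were called in young, old or age comparisons, and the shifts were 0.50 in young and -0.21 in old mice. Core minus regulator between irradiated mice was -0.33 on the 75th percentile, common probe and normexp scales.

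The replicate numbers are shared by the groups, but same-numbered mice did not deviate together (r = -0.60 to 0.58). With the replicate number as a block 1 subunit was called in young mice and 0 in old mice. In old mice 20 of 27 then had an unadjusted p below 0.05. Without the block it was also 20 of 27, against 44.9% of all genes.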
